A study of Mus musculus with 14 samples.

Results

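The histone genes expressed in brain were described here as 1 module in 2 kinds, the clustered histone genes (symbols beginning Hist1h to Hist4h) and the replacement and linker variant genes outside those clusters (H2af, H3f3 and H1f symbols). A gene was a member if its symbol belonged to 1 of these families and its level reached 1 FPKM in at least 2 of the 14 libraries. Of 81 matching symbols among the 23375 genes of the table, 36 were members: 27 of 68 clustered genes and 9 of 13 replacement and linker genes. FPKM values are divided by transcript length and by the size of the library, so levels of different genes can be set side by side per length. The rule left out 1 further H2A gene, which is not reported here.

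Brain RNA came from mice at E19.5, late in gestation, and from adults. A DMR is a differentially methylated region that controls imprinted genes. The H19-DMR and IG-DMR were deleted in KO2, these and also the Rasgrf1-DMR in KO3, and in KO7 those of Gnas, Peg3, Kcnq1, Snrpn, Igf2r, Grb10 and Nespas. The deletions had been made in haploid embryonic stem cells from which the mice were produced. The published study, rather than the labels, describes KO2 and KO3 as bimaternal and KO7 as bipaternal, so deletions and parental origin cannot be told apart. There were 7 groups of 2 libraries each: wild type, KO2 and KO7 at E19.5, and adult wild type set 1, adult KO2, adult wild type set 2 and adult KO3, where the adult wild-type sets are those of the sample titles. The labels name no strain, no adult age and no clone, and they do not say that libraries of a group came from separate animals, so p-values measure only how far these libraries spread, and that spread may be technical.

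Histones package DNA, as octamers of H2A, H2B, H3 and H4 that a linker histone, H1, closes. Most clustered histone genes are transcribed during DNA replication into messages that end in a stem-loop and carry no poly(A) tail. The replacement variants are made throughout the cell cycle from polyadenylated messages, and supply chromatin in neurons, which no longer divide. Some clustered genes also give polyadenylated messages, above all in cells that have left the cycle. The libraries were made from RNA selected over 2 rounds for poly(A) tails, so a clustered gene was measured only through messages that this selection kept.

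Start regions are shown for the 2 clustered genes whose call between KO7 and wild type is described first and for both H3.3 genes, since these carry the main results. RefSeq start windows of 300 bases, 250 before and 50 after the annotated start (GRCm38.p6, while the submitters' processing notes name mm9 for the expression data), were matched for 31 of the 36 members, 23 clustered and 8 replacement. Hist3h2ba lies at chr11:58948661-58948960 (+), Hist3h2a at chr11:58954435-58954734 (+), H3f3a at chr1:180813556-180813855 (-) and H3f3b at chr11:116024455-116024754 (-). Capitals mark 3 motifs on either strand. The CCAAT box is CCAAT, or ATTGG when it lies on the other strand. A TATA box is TATAAA, or in the other direction TTTATA. The octamer is ATTTGCAT, which on the opposite strand reads ATGCAAAT.
Hist3h2ba: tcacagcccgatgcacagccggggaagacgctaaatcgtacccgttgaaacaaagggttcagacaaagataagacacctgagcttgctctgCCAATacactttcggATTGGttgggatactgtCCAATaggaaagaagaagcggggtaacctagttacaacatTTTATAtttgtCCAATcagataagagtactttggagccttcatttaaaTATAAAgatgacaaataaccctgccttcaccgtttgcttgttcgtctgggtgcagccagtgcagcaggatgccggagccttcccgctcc
Hist3h2a: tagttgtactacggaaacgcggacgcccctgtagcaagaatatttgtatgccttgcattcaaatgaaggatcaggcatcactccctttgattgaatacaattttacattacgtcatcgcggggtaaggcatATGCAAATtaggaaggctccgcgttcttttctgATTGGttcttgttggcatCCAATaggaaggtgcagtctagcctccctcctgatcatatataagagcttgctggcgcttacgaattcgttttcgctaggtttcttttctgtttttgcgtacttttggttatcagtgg
H3f3a: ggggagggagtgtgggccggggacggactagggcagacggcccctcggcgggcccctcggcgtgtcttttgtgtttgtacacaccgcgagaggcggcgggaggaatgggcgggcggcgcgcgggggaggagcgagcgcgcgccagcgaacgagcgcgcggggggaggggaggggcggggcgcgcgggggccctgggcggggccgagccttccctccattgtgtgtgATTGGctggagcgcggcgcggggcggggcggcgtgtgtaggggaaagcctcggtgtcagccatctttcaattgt
H3f3b: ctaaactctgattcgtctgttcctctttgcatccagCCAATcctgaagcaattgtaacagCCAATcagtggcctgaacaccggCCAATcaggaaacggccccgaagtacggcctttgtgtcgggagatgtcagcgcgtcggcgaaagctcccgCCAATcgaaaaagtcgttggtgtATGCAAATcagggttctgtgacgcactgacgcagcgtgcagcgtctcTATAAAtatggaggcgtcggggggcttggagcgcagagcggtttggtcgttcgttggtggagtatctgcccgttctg

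The H3.3 windows differed in their motifs. H3f3b held 4 CCAAT motifs, 1 TATA box and 1 octamer, whereas H3f3a held 1 CCAAT motif, on the other strand. Hist3h2ba held 4 CCAAT motifs and 2 TATA motifs, and Hist3h2a 2 CCAAT motifs and 1 octamer. Over the windows as a whole, CCAAT was found in 69.6% of the 23 clustered genes, 62.5% of the 8 replacement genes and 41.1% of all 27025 genes with a window. TATAAA was found in 52.2%, 12.5% and 15.7%, and the octamer in 17.4%, 12.5% and 1.97%. By histone class, CCAAT was in all 4 clustered H2A and all 6 clustered H2B windows and in 3 of 10 H4 windows, while TATAAA was in 7 of the 10 H4 windows. The motif AAACACA, an element of H1 gene promoters, was in both clustered H1 windows and in 8.22% of all genes. It was also in 1 of the 8 replacement windows, that of H3f3a, where it is not marked above, and in neither H1f0 nor H1fx. The cyclic AMP response element TGACGTCA was in 3 clustered and 0 replacement windows against 2.03% of all genes. These are matches of letters, searched on both strands, and not tested sites.

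Sequencing depth is unknown, since the files hold FPKM alone; 12701 to 13398 genes a library were at 1 FPKM or more. All 6 neuron markers (Snap25, Syt1, Rbfox3, Tubb3, Map2 and Stmn2) were above 0 in every library, with a summed level of 1615 to 3461 FPKM. In the 4 libraries of adult KO3 and adult wild type set 2, 9994 genes had 0 throughout, 6396 of them above 0 elsewhere, and the smallest gene maximum above 0 was 1.02 FPKM. A gene that reached 1.02 FPKM in none of these 4 libraries was thus listed at 0 in all 4, as were 6 of the 36 histone genes. Other genes kept low values above 0, such as Hist2h2bb at 0.446 and 0.389 FPKM in adult KO3. An earlier account of these data described 3 libraries as standing apart, namely replicate 2 of adult KO3, replicate 2 of adult wild type set 2 and replicate 1 of E19.5 KO2. The main counts are also given without them where they change. In bulk tissue, fewer cells of a type and less RNA per cell cannot be told apart.

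The rule kept unequal parts of the histone classes. Members were 2 of 6 clustered H1 genes, 4 of 18 H2A, 9 of 19 H2B, 1 of 12 H3 and 11 of 13 H4, and 10 clustered symbols were listed at 0 in every library. Just inside the limit, the second highest FPKM was 1.00 for Hist1h2bj, 1.16 for Hist1h2be and 1.46 for Hist1h2ak, and just outside it was 0.889 for Hist1h2bn, 0.791 for Hist1h2bg and 0.736 for Hist1h2bl. Over the 14 libraries, 16 members reached 1 FPKM in every one. All 9 replacement genes had a group mean of at least 10 FPKM in some group, against 6 of the 27 clustered genes: Hist3h2ba, Hist3h2a, Hist1h2bc, Hist1h2af, Hist1h4d and Hist1h1c. By the RefSeq gene table, 19 clustered members lie on chromosome 13, 5 on chromosome 3 and 3 on chromosome 11, among the last a transcribed pseudogene, Hist3h2bb-ps.

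Replacement genes made up most of the histone signal in this poly(A)-selected RNA. Their 9 members summed to 923 to 1551 FPKM in the 6 E19.5 libraries and 383 to 711 FPKM in the 8 adult libraries. The 27 clustered genes summed to 95.8 to 255 FPKM over all 14. Clustered genes thus held 10.2% to 17.6% of the summed FPKM at E19.5 and 15.8% to 31.0% in adults, a description without a test. Within the clustered sum, Hist3h2ba, Hist3h2a and Hist1h2bc held 32.3% to 82.0%. The H3 genes were the clearest case. H3f3a and H3f3b, which encode the same H3.3 protein, summed to 541 to 875 FPKM at E19.5. All 12 clustered H3 symbols together summed to 0.821 to 3.87 FPKM in any library. Messages without a poly(A) tail were not kept by the selection, so total H3 mRNA was not compared.

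**Figure D1:**
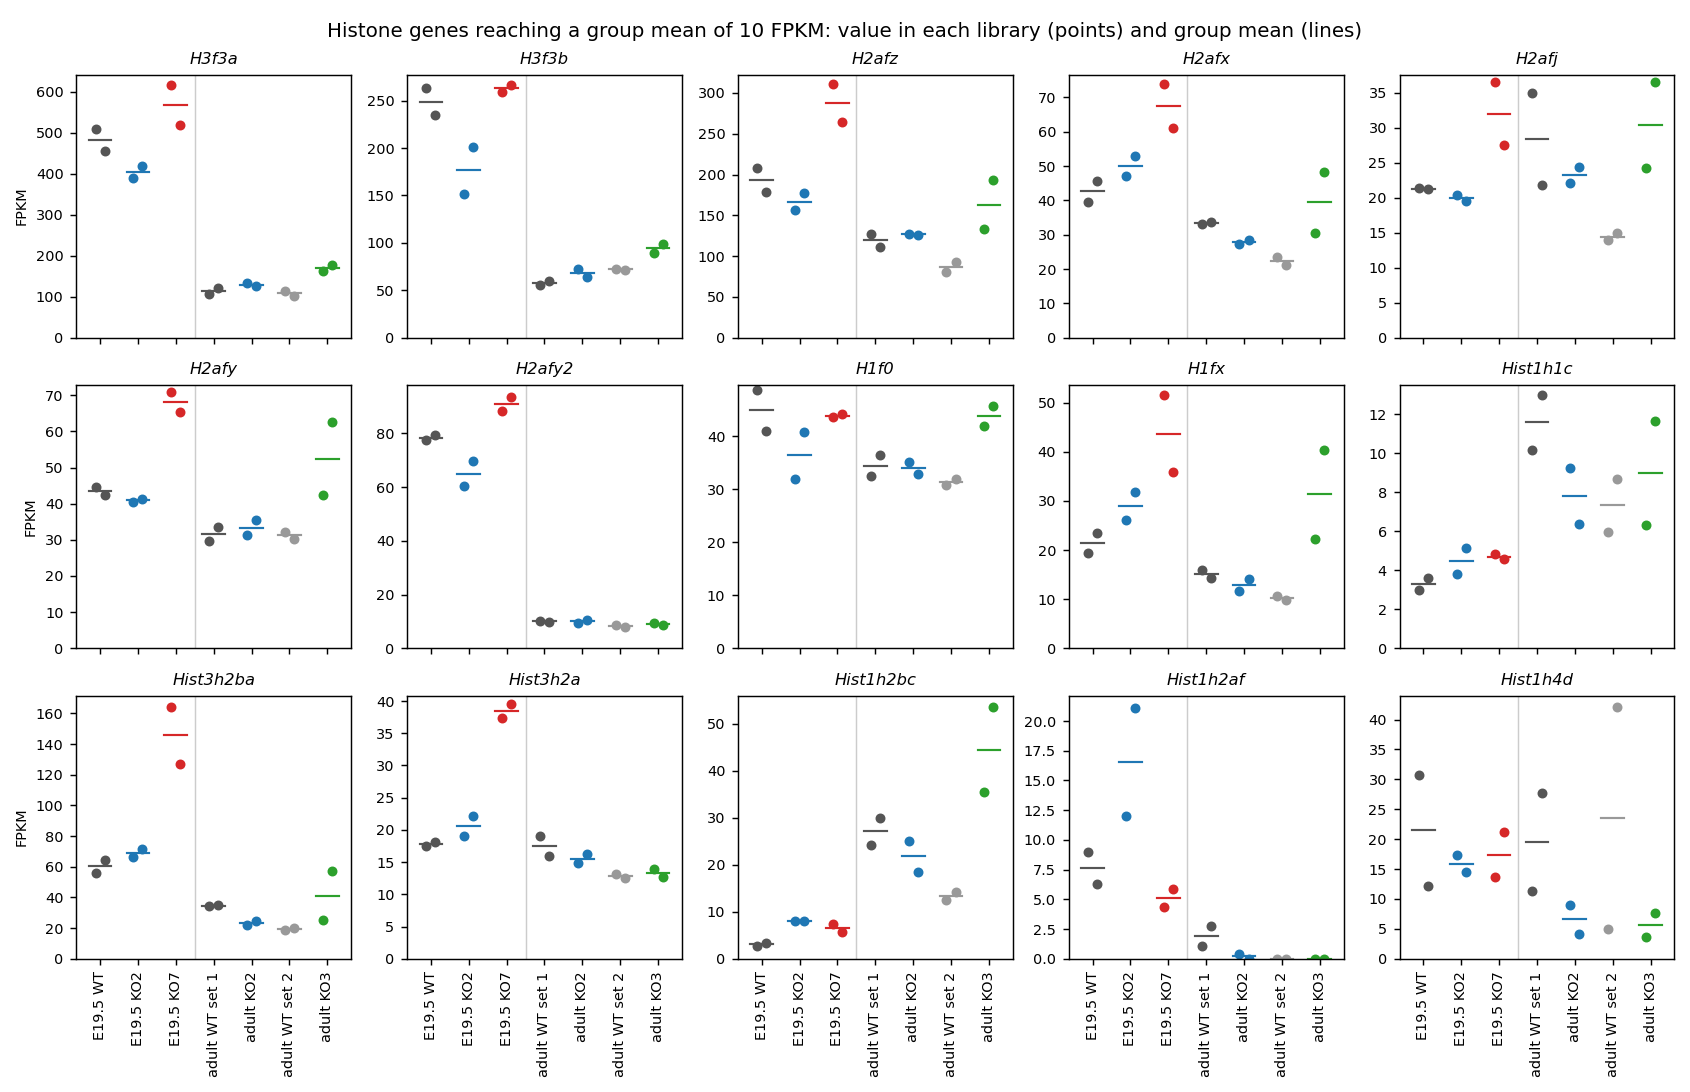
FPKM (vertical axes, linear from 0, a separate scale in each panel) of the 15 histone genes with a group mean of at least 10 FPKM, with 1 point per library, 2 per group, and a line at each group mean; the vertical line parts E19.5 from adult. H2afy2, H3f3a and H3f3b lie far lower in all 8 adult libraries than in the 6 E19.5 libraries, Hist1h2bc lies higher, and the 2 points of adult KO3 are often far apart.

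Between E19.5 and adult wild-type brain, the H3.3 genes and macroH2A2 fell steeply and a group of clustered genes rose. H2afy2, which encodes the large H2A variant macroH2A2, was 7.84-fold lower in adults by mean FPKM, H3f3a 4.22-fold and H3f3b 4.29-fold lower. Hist1h2bc, an H2B gene, was 8.87-fold higher and Hist1h1c, a linker H1 gene, 3.51-fold higher. Of the 9 replacement genes 6 fell and 0 rose, and of the 27 clustered genes 10 rose and 2 fell. Some of the 10, named below, were members only through adult libraries. That count and the clustered median are thus partly set by the rule. The background was large: 56% of the 14322 genes tested changed, 21.9% up and 34.1% down. The median change on the log2(FPKM + 1) scale was -0.47 over the replacement genes and 0.76 over the clustered genes, beside -0.15 over all genes tested. That overall median was -0.07 after quantile scaling and -0.03 after median-of-ratios scaling, so each change below is to be read relative to it.

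H3f3a stood at 509 and 456 FPKM in the E19.5 wild-type libraries and at 107 and 122 FPKM in adult set 1. Its change was -2.07 ± 0.14 (SE) on the log2(FPKM + 1) scale (adjusted p = 6.97e-07, limma). H3f3b stood at 263 and 234 FPKM against 55.8 and 60.3 FPKM, a change of -2.08 ± 0.15 (adjusted p = 7.97e-07, limma). Neither gene's groups overlapped. H3f3a was 65.9% and 66.0% of the H3.3 signal at E19.5 and 65.8% and 66.8% in adult set 1. Over all 14 libraries that share ran from 59.0% to 71.9%.

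Among the H2A variants, H2afy2 fell from 77.6 and 79.2 FPKM to 10.1 and 9.87 FPKM. The change was -2.85 ± 0.11 (adjusted p = 2.65e-08, limma). Its paralogue H2afy, which encodes macroH2A1, fell less, from 44.7 and 42.4 FPKM to 29.6 and 33.6 FPKM (log2 change -0.45 ± 0.16, adjusted p = 0.0304, limma). In consequence H2afy2 made 63.4% and 65.1% of the macroH2A signal in the E19.5 wild-type libraries and 25.5% and 22.7% in adult set 1. H2afz, the gene of H2A.Z, which marks gene starts, fell from 208 and 178 FPKM to 127 and 112 FPKM (log2 change -0.69 ± 0.18, adjusted p = 0.00685, limma). H2afx, the gene of the variant phosphorylated at DNA breaks, stood at 39.6 and 45.8 FPKM and then 33.04 and 33.6 FPKM. H2afj stood at 21.4 and 21.2 FPKM and then at 35.0 and 21.8 FPKM. Neither of these last 2 passed the threshold, and H2afj was the only replacement gene with a change above 0.

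The linker variant H1f0, which accumulates in cells that have stopped dividing, stood at 48.7 and 41.1 FPKM at E19.5 and 32.4 and 36.4 FPKM in adult set 1 (log2 change -0.37 ± 0.13, adjusted p = 0.0351, limma). This was a small fall, and both H1f0 and H2afy lost their call after median-of-ratios scaling and without E19.5 wild type replicate 1 or adult set 1 replicate 1. H2afy also lost it without E19.5 wild type replicate 2, and H1f0 after quantile scaling. H2afz lost it without E19.5 wild type replicate 1 or adult set 1 replicate 2. H1fx, the other linker variant, stood at 19.47 and 23.4 FPKM and at 16.01 and 14.3 FPKM and did not pass.

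The clustered genes that rose were low at E19.5. Hist1h2bc stood at 2.76 and 3.35 FPKM in wild type at E19.5 and at 24.2 and 30.0 FPKM in adult set 1. Its change was 2.79 ± 0.21 (adjusted p = 1.2e-06, limma), and all 8 adult libraries lay above all 6 E19.5 libraries. The linker gene Hist1h1c stood at 3.004 and 3.61 FPKM, then at 10.2 and 13.01 FPKM (log2 change 1.54 ± 0.27, adjusted p = 0.000495, limma). Its relative Hist1h1e went from 0.172 and 0.160 FPKM to 1.60 and 1.61 FPKM (log2 change 1.16 ± 0.21, adjusted p = 0.000617, limma). The H2B genes Hist1h2be and Hist2h2bb also rose, to 1.10 and 1.07 FPKM and to 1.59 and 2.52 FPKM. Hist2h3c2, the only clustered H3 member, rose from 0 and 0.508 FPKM to 1.73 and 1.89 FPKM (log2 change 1.19 ± 0.23, adjusted p = 0.00114, limma). In each of these genes the groups did not overlap, but all were picked by a test of the same values. Hist1h1e, Hist1h2be and Hist2h3c2 reached 1 FPKM in adult libraries only. They became members through the stage where they were high, so their direction was largely set by the rule. Hist1h4k, Hist1h4m and Hist2h2bb also needed adult libraries to reach the minimum.

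The other 4 genes that rose were H4 genes, Hist1h4k, Hist1h4h, Hist2h4 and Hist1h4m. Without adult set 1 replicate 2, Hist1h4h (adjusted p = 0.195), Hist2h4 (0.167) and Hist1h4m (0.215) lost their calls, as did the H2B gene Hist2h2bb (0.0715). Without E19.5 wild type replicate 1, Hist2h4 (0.249) and Hist1h4m (0.092) also lost them, and without replicate 2 Hist1h4h (0.23), Hist1h4m (0.0881) and Hist2h2bb (0.0693). Clustered H4 genes encode the same protein, are short and have near-identical sequences, so the split of reads between them is uncertain. Their libraries disagreed widely: Hist1h4d, the highest, stood at 4.99 and 42.1 FPKM in adult set 2 and at 11.3 and 27.7 FPKM in adult set 1. Hist1h4k was the steadiest, at 0 and 1.30 FPKM in wild type at E19.5 and 7.99 and 6.78 FPKM in adult set 1 (log2 change 2.46 ± 0.34, adjusted p = 0.000106, limma). It was listed at 0 in all 4 E19.5 knockout libraries.

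A pair of H2A and H2B genes went the other way. Hist1h2af, an H2A gene, fell from 9.02 and 6.31 FPKM to 1.06 and 2.75 FPKM (log2 change -1.62 ± 0.31, adjusted p = 0.000984, limma). Hist3h2ba, the most abundant clustered gene at E19.5, stood at 56.1 and 64.6 FPKM and then at 34.4 and 35.0 FPKM (log2 change -0.78 ± 0.27, adjusted p = 0.0303, limma). The groups did not overlap, but its call was lost without any 1 of the 4 libraries compared, without a filter and after median-of-ratios scaling. Hist3h2a, the neighbouring H2A gene, stood at 17.5 and 18.1 FPKM and 19.01 and 15.95 FPKM, and its groups overlapped. The ratio of the 2 H2B genes shifted: Hist1h2bc was 0.0492 and 0.0518 times Hist3h2ba in E19.5 wild type and 0.704 and 0.858 times in adult set 1.

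KO2 brains share no library with the wild-type comparison. In KO2, 14 of 36 histone genes changed between the stages, 4 up and 10 down, against 49.3% of all genes tested (20.7% higher and 28.6% lower). Of the replacement genes 5 of 9 fell and 0 rose, with a median of -0.82. Of the clustered genes 4 of 27 rose and 5 fell, with 13 above 0, 14 below it and a median of -0.13, beside -0.09 over all genes. Without the 3 libraries that stand apart the clustered median was 0.35, with 17 above 0 and 10 below. H2afy2 stood at 60.4 and 69.6 FPKM at E19.5 and 9.36 and 10.6 FPKM in adults (log2 change -2.59 ± 0.11, adjusted p = 6.17e-08, limma). H3f3a went from 389 and 418 FPKM to 133 and 126 FPKM (log2 change -1.63 ± 0.14, adjusted p = 5.23e-06, limma), and H3f3b from 152 and 201 FPKM to 73.0 and 64.2 FPKM (log2 change -1.34 ± 0.15, adjusted p = 2.48e-05, limma). Hist1h2bc rose from 7.99 and 8.02 FPKM to 25.1 and 18.6 FPKM, a change of 1.33 ± 0.21 (adjusted p = 0.000337, limma). Groups of these 4 genes did not overlap, and their calls held in all 23 settings tried, as they did in wild type. Hist1h4k also rose in all 23 settings, from 0 in both libraries to 6.94 and 5.96 FPKM. Hist1h1e rose from 0.436 and 0.282 to 1.35 and 1.40 FPKM (22 of 23 settings). Hist2h3c2 rose from 0.812 and 0.280 to 2.56 and 1.42 FPKM (21 of 23). Hist1h4k, Hist1h1e and Hist2h3c2 were members only through adult libraries.

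Another 4 members fell in all 23 settings. Hist1h2af, which had fallen in wild type too, went from 12.02 and 21.1 FPKM to 0.403 and 0 FPKM (log2 change -3.84 ± 0.31, adjusted p = 3.07e-06, limma). H1fx fell from 26.0 and 31.8 FPKM to 11.6 and 14.1 FPKM (log2 change -1.11 ± 0.25, adjusted p = 0.0032, limma), and H2afx from 47.1 and 52.9 FPKM to 27.3 and 28.5 FPKM (log2 change -0.82 ± 0.18, adjusted p = 0.0033, limma). Neither H1fx nor H2afx had passed in wild type, although both did there without the 3 libraries that stand apart. Hist3h2ba fell from 66.2 and 71.4 FPKM to 22.1 and 24.8 FPKM (log2 change -1.51 ± 0.27, adjusted p = 0.000863, limma), and its groups did not overlap. Less firmly, Hist3h2a fell from 19.01 and 22.1 to 14.8 and 16.3 FPKM (20 of 23 settings). Hist1h2ak, which needed E19.5 libraries to be a member, fell from 1.91 and 0.387 FPKM to 0 in both libraries (16 of 23). Hist1h4m, which had risen in wild type, fell in KO2 from 2.71 and 0.732 to 0.384 and 0.425 FPKM (9 of 23). Whether the stage change itself differed between KO2 and wild type was tested as an interaction, and 0 of the 36 histone genes passed in limma (7 at an unadjusted p under 0.05, beside 2118 of the 14322 genes tested), against 0.0628% of all genes tested (0.0349% higher and 0.0279% lower). For H1fx the interaction had an adjusted p of 0.423 and for H2afx 0.422, so the difference from wild type was not shown. Nearest to the threshold were Hist1h2af (log2 difference -2.22 ± 0.44, adjusted p = 0.0714, limma) and Hist1h2bc (-1.46 ± 0.29, adjusted p = 0.0743, limma). Both passed when either adult KO3 library was left out, which are not libraries of this contrast but share its estimate of the spread: the adjusted p was then 0.0421 or 0.042 for Hist1h2af and 0.0245 or 0.0247 for Hist1h2bc.

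**Figure D2:**
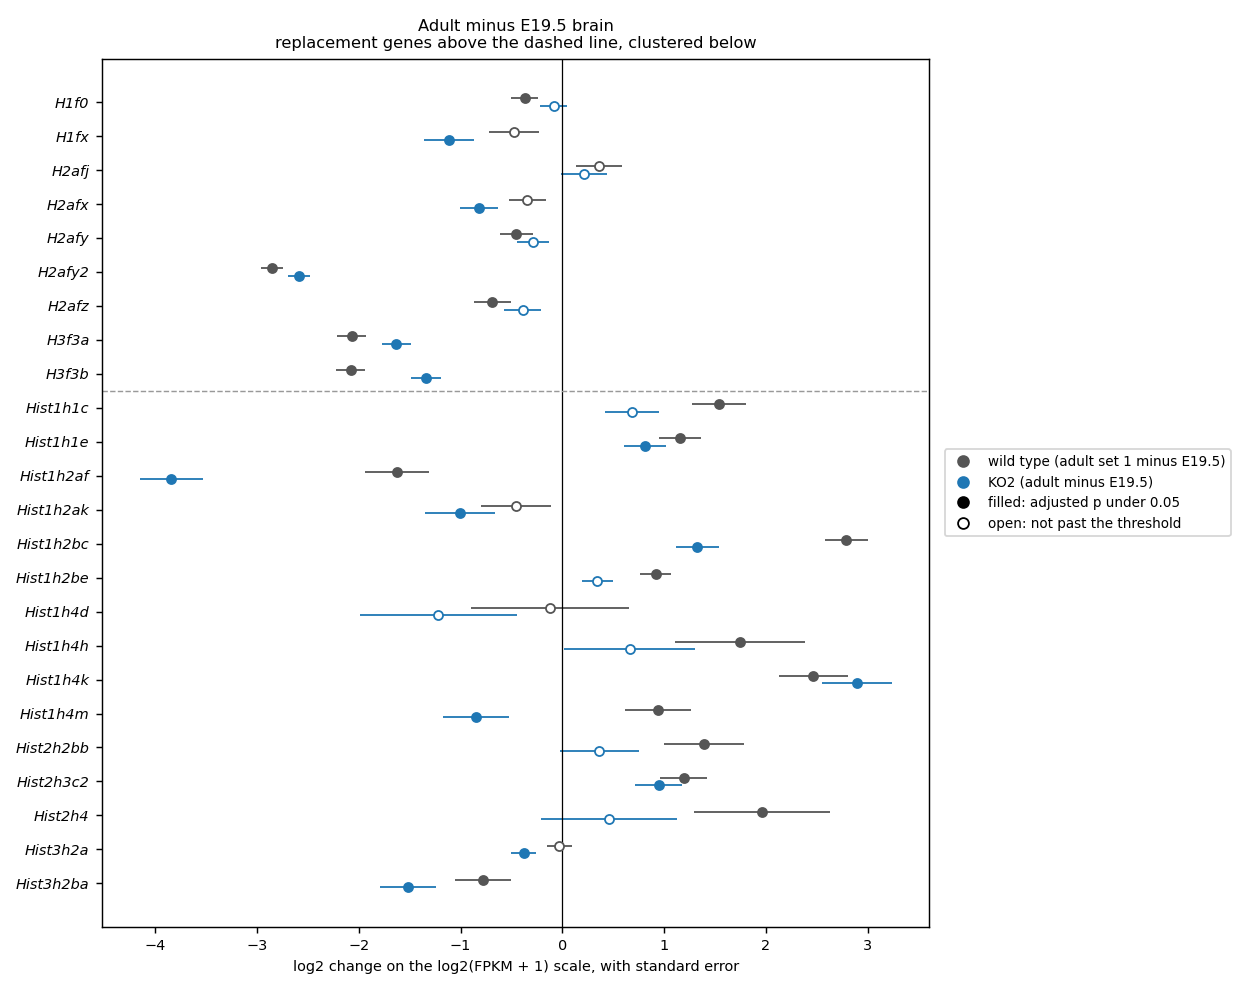
Change from E19.5 to adult brain on the log2(FPKM + 1) scale (horizontal axis, points, with standard error bars) for 24 histone genes (vertical axis), in wild type (grey) and KO2 (blue), from 2 libraries a group; filled points have a limma adjusted p under 0.05. H2afy2, H3f3a and H3f3b lie far to the left in both, and Hist1h2bc and Hist1h4k to the right.

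Genes that make, carry and insert histones mostly fell over the same interval in wild type. Of 21 S phase and mitosis genes tested, 19 fell and 0 rose, among them Rrm2, a subunit of the enzyme that makes deoxynucleotides (10.7 to 1.22 FPKM by group means), and the topoisomerase gene Top2a (6.81 to 1.0103 FPKM). Of 12 genes of histone transcription and stem-loop processing, 8 fell and 1 rose. Lsm11, a part of the U7 particle that cuts histone messages, fell from 21.9 to 5.38 FPKM, and Slbp, which binds the stem-loop, from 19.48 to 10.5 FPKM. All but 1 of the 9 replication-coupled chaperone genes fell, among them the H3-H4 carrier Nasp (47.4 to 8.07 FPKM, log2 change -2.42) and Chaf1b of the CAF-1 complex (3.90 to 0.329 FPKM). Of 8 H3.3 chaperone and remodeller genes 5 fell, among them Atrx (44.4 to 16.2 FPKM) and Hira (27.1 to 15.4 FPKM). Of 9 genes that handle H2A.Z, H2A.X or H2A-H2B, 7 fell, among them Nap1l4 (82.7 to 41.9 FPKM) and Vps72, a subunit of H2A.Z exchange complexes (44.6 to 19.98 FPKM).

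In KO2 the same lists gave 17 of 21, 7 of 12, 7 of 9, 5 of 8 and 5 of 9 genes that fell, with 1 H3.3 chaperone or remodeller gene that rose. Markers of cell types moved with these changes. In wild type, oligodendrocyte markers rose in 6 of 6 genes, from a summed 33.9 and 41.8 FPKM to 2394 and 3139 FPKM. Astrocyte markers rose in 6 of 6 (181 and 218 to 1027 and 1071 FPKM) and microglia markers in 6 of 6 (26.6 and 30.1 to 155 and 128 FPKM). Progenitor and newborn neuron markers fell in 5 of 6 (342 and 280 to 39.3 and 40.1 FPKM). No marker of these 4 lists was at 0 in any of these groups, and their part in the histone changes was not tested. In KO2 the same 4 lists gave 6 of 6, 4 of 6 and 6 of 6 genes that rose and 5 of 6 that fell.

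At E19.5, KO7 brains had more mRNA of several histone genes than wild type, led by a pair of neighbouring genes. Hist3h2ba was 2.42-fold and Hist3h2a 2.16-fold higher by mean FPKM, Hist1h2bc 2.15-fold, H1fx 2.03-fold and H2afy 1.56-fold. These 5 of 36 histone genes rose and 0 fell, against 4.45% of all genes tested (3.02% higher and 1.43% lower). The median log2 change was 0.55 over the 9 replacement genes and 0.29 over the 27 clustered genes, beside 0.005 over all genes. Of the replacement genes 8 of 9 had a change above 0 (6 of 9 after quantile scaling).

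Hist3h2a stood at 17.5 and 18.1 FPKM in wild type and 37.3 and 39.5 FPKM in KO7. Its change was 1.07 ± 0.12 (adjusted p = 0.00149, limma), with groups that did not overlap, and it passed in all 23 settings tried, with an adjusted p of 0.00055 to 0.0299. Hist3h2ba stood at 56.1 and 64.6 FPKM in wild type and at 164 and 127 FPKM in KO7, the highest values of any clustered gene in the series. The change was 1.25 ± 0.27 (adjusted p = 0.029, limma) and passed in 19 of 23 settings. The 4 that lost it left out 1 of the compared libraries: the adjusted p was 0.208 without wild type replicate 1, 0.0868 without wild type replicate 2, 0.251 without KO7 replicate 1 and 0.0668 without KO7 replicate 2.

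The other 3 calls were less firm. Hist1h2bc went from 2.76 and 3.35 FPKM to 7.45 and 5.72 FPKM (log2 change 0.90 ± 0.21, adjusted p = 0.0372, limma) and passed in 12 of 23 settings. H1fx went from 19.47 and 23.4 FPKM to 51.5 and 35.8 FPKM (log2 change 0.97 ± 0.25, adjusted p = 0.0495, limma). H2afy went from 44.7 and 42.4 FPKM to 70.8 and 65.3 FPKM (log2 change 0.63 ± 0.16, adjusted p = 0.0484, limma). Groups did not overlap in these 3 genes, but H1fx and H2afy passed in only 7 of 23 settings, and each lost its call under the replicate block and without any 1 of the 4 compared libraries, as Hist1h2bc did in the latter case.

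Further H2A variants lay higher in both KO7 libraries without passing. H2afz stood at 311 and 264 FPKM in KO7 against 208 and 178 FPKM in wild type (log2 change 0.57 ± 0.18, adjusted p = 0.0979, limma). H2afx stood at 74.0 and 61.0 FPKM against 39.6 and 45.8 FPKM (log2 change 0.65 ± 0.18, adjusted p = 0.0725, limma), and H2afj at 36.5 and 27.6 FPKM against 21.4 and 21.2 FPKM (log2 change 0.55 ± 0.22, adjusted p = 0.182, limma). Of the H3.3 genes, H3f3a was also higher in both KO7 libraries, at 616 and 519 FPKM (log2 change 0.23 ± 0.14, adjusted p = 0.375, limma). H3f3b was at 259 and 267 FPKM (0.08 ± 0.15), and its groups overlapped. In the libraries of the E19.5 stage alone, 9 histone genes passed, all higher. Without the 3 libraries that stand apart 8 passed, all higher, H2afx and H2afz among them.

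Other gene lists were measured beside the KO7 rise. Of the 21 S phase and mitosis genes 7 rose and 0 fell, among them Cdk1, the kinase that starts mitosis (2.01 to 4.62 FPKM by group means), Ccnb1, its cyclin (3.23 to 7.22 FPKM), and Mcm3 of the replication helicase (3.98 to 7.41 FPKM). Their list summed to 246 and 260 FPKM in KO7 against 181 FPKM in both wild-type libraries. No gene of the 4 other histone handling lists passed in limma. At an unadjusted p under 0.05 there were 3 stem-loop processing, 3 replication-coupled chaperone, 4 H3.3 chaperone and 0 H2A handling genes, beside 3026 of the 14322 genes tested. All 8 H3.3 chaperone and remodeller genes had a change below 0, with a median of -0.20. Meninges and fibroblast markers rose in 5 of 5 genes (162 and 144 against 50.1 and 69.5 FPKM), endothelium and pericyte markers in 3 of 6 (125 and 110 against 63.5 and 69.1 FPKM) and erythroid markers in 2 of 5 (2641 and 2478 against 95.0 and 520 FPKM), with none of these markers at 0. The part of these in the histone values was not tested. The Y-linked genes Ddx3y and Eif2s3y stood at 7.07 to 7.72 and 22.6 to 25.0 FPKM in KO7 and at most at 0.0274 FPKM in the 12 other libraries, so the effect of KO7 and that of sex cannot be told apart.

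KO2 at E19.5 changed 1 histone gene. Hist1h2bc was 2.62-fold higher by mean FPKM, at 7.99 and 8.02 FPKM against 2.76 and 3.35 FPKM in wild type (log2 change 1.16 ± 0.21, adjusted p = 0.0259, limma), against 1.28% of all genes tested (0.88% higher and 0.398% lower). The groups did not overlap. The call was lost with a pseudocount of 5 (adjusted p = 0.0794), without the 3 libraries that stand apart (0.074), and without any 1 of the 4 libraries compared. It was 0.269 and 0.0833 without wild type replicates 1 and 2, and 0.164 and 0.144 without KO2 replicates 1 and 2. Over all settings the adjusted p ran from 0.00697 to 0.269, and the size from 0.69 to 1.37 on the log2 scale of each pseudocount.

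Other histone genes in E19.5 KO2 split by kind, without passing. Of 27 clustered genes 21 had a change above 0 and 5 below it (14 and 12 without the 3 libraries that stand apart), with a median of 0.24. Of 9 replacement genes 7 lay below 0, with a median of -0.21 beside -0.006 over all genes. H3f3b was the lowest of these, at 152 and 201 FPKM against 263 and 234 FPKM (log2 change -0.50 ± 0.15, adjusted p = 0.126, limma). Hist1h2af stood at 12.02 and 21.1 FPKM against 9.02 and 6.31 FPKM (log2 change 0.99 ± 0.31, adjusted p = 0.153, limma). In all 5 histone handling lists 0 genes passed in limma, with 3 of 21, 2 of 12, 3 of 9, 4 of 8 and 1 of 9 at an unadjusted p under 0.05, in the order in which they were given above. Oligodendrocyte markers rose in 2 of 6 genes (167 and 92.9 against 33.9 and 41.8 FPKM) astrocyte markers in 1 of 6 (439 and 424 against 181 and 218 FPKM) and erythroid markers in 2 of 5 (405 and 738 against 95.0 and 520 FPKM), none at 0. Their part in the Hist1h2bc value was not tested.

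Since both E19.5 knockouts were set against the same wild-type libraries, they were also compared with each other. KO7 was higher than KO2 in 6 histone genes and lower in 2, against 5.63% of all genes tested (3.23% higher and 2.4% lower). Higher were H2afz (311 and 264 against 156 and 178 FPKM, log2 difference 0.78 ± 0.18, adjusted p = 0.0308, limma), H2afy (0.72 ± 0.16, adjusted p = 0.0254, limma), H2afy2 (0.48 ± 0.11, adjusted p = 0.0289, limma) and H3f3b (0.59 ± 0.15, adjusted p = 0.0404, limma). Hist3h2a (37.3 and 39.5 against 19.01 and 22.1 FPKM, 0.87 ± 0.12, adjusted p = 0.00313, limma) and Hist3h2ba (164 and 127 against 66.2 and 71.4 FPKM, 1.06 ± 0.27, adjusted p = 0.0463, limma) were also higher. Lower were Hist1h2af (4.33 and 5.85 against 12.02 and 21.1 FPKM, -1.49 ± 0.31, adjusted p = 0.0202, limma) and Hist1h4m (below 0.001 FPKM in both KO7 libraries against 2.71 and 0.732 FPKM). Groups did not overlap in any of the 8, which were picked by a test of the same values. All 9 replacement genes had a difference above 0.

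Hist3h2a alone passed in all 23 settings. H3f3b and Hist3h2ba passed in 8 of 23. H2afy, H2afy2 and H2afz lost their calls without any 1 of the 4 compared libraries. Without the 3 libraries that stand apart, 4 histone genes passed. S phase and mitosis genes were higher in KO7 in 13 of 21, among them Cdk1, Mcm3, Top2a and Mcm2, and 2 replication-coupled chaperone genes were higher, Chaf1b (2.19 to 4.30 FPKM) and Asf1b (0.891 to 2.06 FPKM). Oligodendrocyte markers were lower in 4 of 6, astrocyte markers lower in 3 of 6 and meninges and fibroblast markers higher in 4 of 5, and their part was not tested.

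**Figure D3:**
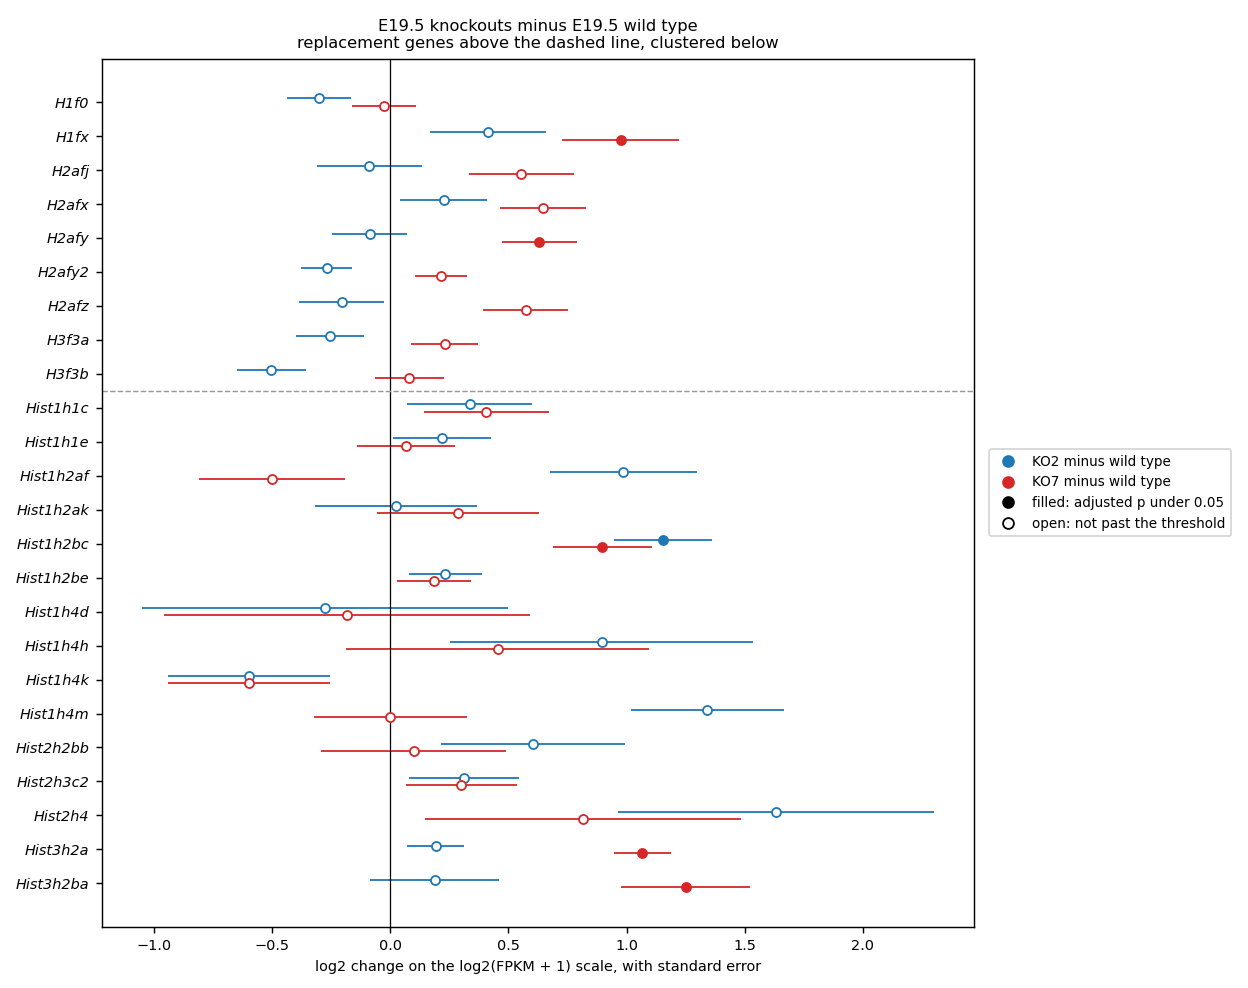
Difference of E19.5 KO2 (blue) and KO7 (red) from the same 2 E19.5 wild-type libraries, on the log2(FPKM + 1) scale (horizontal axis, points, with standard error bars), for 24 histone genes (vertical axis); filled points have a limma adjusted p under 0.05. The 5 filled KO7 points lie between 0.63 and 1.25, and the single filled KO2 point is Hist1h2bc at 1.16.

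In adults, KO2 changed no histone gene that the test could show. Of 36 histone genes 0 passed in limma (3 at an unadjusted p under 0.05), against 0.154% of all genes tested (0.105% higher and 0.0489% lower). Of the main genes, H3f3a stood at 133 and 126 against 107 and 122 FPKM, H3f3b at 73.0 and 64.2 against 55.8 and 60.3 FPKM, and H2afy2 at 9.36 and 10.6 against 10.1 and 9.87 FPKM. Hist1h2bc stood at 25.1 and 18.6 against 24.2 and 30.0 FPKM and its groups overlapped. Nearest to the threshold was Hist1h2af, at 0.403 and 0 against 1.06 and 2.75 FPKM (log2 change -1.23 ± 0.31, adjusted p = 0.266, limma). Clustered genes had a median change of -0.31, with 6 above 0 and 20 below, and replacement genes of -0.004, beside 0.04 over all genes. No gene of the 5 histone handling lists passed in limma, with 2, 0, 1, 1 and 0 at an unadjusted p under 0.05 in the same order.

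Adult KO3 differed from its wild-type set in 13 of 36 histone genes, 10 higher and 3 lower, but this count rested on few libraries. All 9 replacement genes had a change above 0 and 7 passed, with a median of 0.70 beside 0 over all genes, of which 22.1% passed (13.9% higher and 8.2% lower). Over all genes 1990 were higher and 1174 lower, but 1611 and 1810 after quantile scaling and 2024 and 1791 after median-of-ratios scaling. Hist1h2bc stood at 35.5 and 53.5 FPKM in KO3 against 12.6 and 14.1 FPKM in set 2 (log2 change 1.64 ± 0.21, adjusted p = 0.00594, limma). H1fx stood at 22.3 and 40.4 against 10.6 and 9.84 FPKM (log2 change 1.47 ± 0.25, adjusted p = 0.00937, limma), H2afz at 133 and 193 against 80.7 and 92.4 FPKM, and H3f3a at 162 and 176 against 113 and 103 FPKM (log2 change 0.64 ± 0.14, adjusted p = 0.0158, limma). Also higher were H2afj, H2afx, H2afy, H1f0, Hist2h3c2 and Hist3h2ba. Lower were Hist1h4k (0.848 and 2.17 against 8.78 and 5.89 FPKM), Hist1h1e (0.738 and 0.570 against 1.005 and 2.55 FPKM) and Hist1h4m. Groups did not overlap in any of the 13, which were picked by a test of the same values.

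The calls between KO3 and set 2 changed with the libraries fitted. With the adult libraries alone, 0 genes of any kind passed in limma (4403 at an unadjusted p under 0.05, among them 17 histone genes). Without the 3 libraries that stand apart, 0 histone genes passed (11 at an unadjusted p under 0.05). Without KO3 replicate 2 the log2 change was 1.35 for Hist1h2bc, 1.06 for H1fx and -2.15 for Hist1h4k. Each histone call of the main fit was lost without some 1 library of these groups. Counts over all genes moved too, and are given by range below. KO3 replicate 2 held the higher value of Hist1h2bc, H1fx, H2afz, H2afx (30.6 and 48.2 FPKM), H2afy (42.4 and 62.6 FPKM), H2afj (24.2 and 36.5 FPKM) and Hist3h2ba (25.5 and 57.0 FPKM). Erythroid markers rose in 2 of 5 (965 and 1008 against 117 and 60.8 FPKM). Of 6 neuron markers 2 were higher and 1 lower (2008 and 2016 against 1909 and 1815 FPKM), and 1 of 6 astrocyte markers was higher, 1 of 6 microglia markers higher and 1 of 6 endothelium and pericyte markers lower. Their part was not tested. In the histone handling lists, 1 gene was higher and 1 lower of 21 S phase and mitosis genes (Pcna and Mcm2), and 1 higher and 1 lower of 8 H3.3 chaperone genes (Dek and Cabin1). Of 9 H2A handling genes 3 were higher, among them Nap1l1 (112 to 167 FPKM), and 1 lower, Ep400. In stem-loop processing 1 of 12 was higher, Slbp (12.7 to 16.9 FPKM), and 1 of 9 replication-coupled chaperone genes, Rbbp7. These counts stand beside the 22.1% of all genes that passed.

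**Figure D4:**
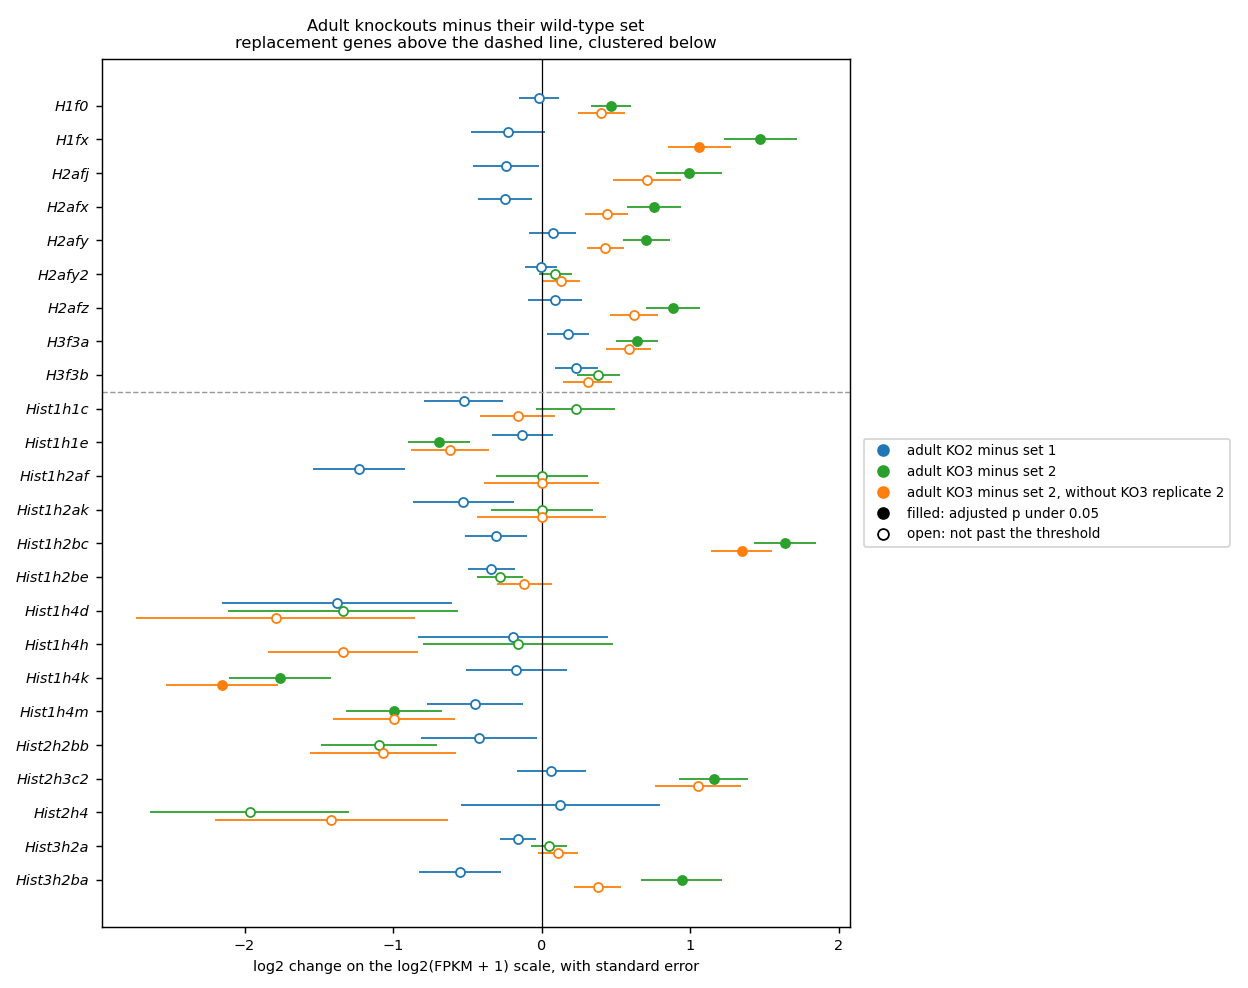
Difference of adult KO2 from set 1 (blue), adult KO3 from set 2 (green) and the same without KO3 replicate 2 (orange), on the log2(FPKM + 1) scale (horizontal axis, points, with standard error bars), for 24 histone genes (vertical axis); filled points have a limma adjusted p under 0.05. No blue point is filled, 13 green points are, and 3 orange points are; Hist1h2af and Hist1h2ak lie at 0 for KO3 because they are listed at 0 in all 4 libraries.

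The adult wild-type sets carry the same label and yet differed. Of 36 histone genes 4 were lower in set 2 and 0 higher, against 20.9% of all genes tested (6.84% higher and 14% lower). Hist1h2bc stood at 12.6 and 14.1 FPKM in set 2 against 24.2 and 30.0 FPKM in set 1 (log2 difference -0.96 ± 0.21, adjusted p = 0.0087, limma). H2afj stood at 14.0001 and 14.9 against 35.0 and 21.8 FPKM (-0.89 ± 0.22, adjusted p = 0.0174, limma), and Hist3h2a at 13.2 and 12.5 against 19.01 and 15.95 FPKM (-0.41 ± 0.12, adjusted p = 0.0332, limma). Hist1h2af was listed at 0 in set 2, so no fold is given. Groups did not overlap in these 4 genes, which were picked by a test of the same values. All 4 calls were lost without some 1 library of these sets: Hist1h2af (0.0686) and Hist1h2bc (0.0725) without set 1 replicate 2, Hist1h2bc (0.0577) without set 2 replicate 1, and H2afj and Hist3h2a without set 1 replicate 1 or either library of set 2. Hist3h2a and H2afj also lost theirs when the adult libraries were fitted alone, and Hist3h2a without the 3 libraries that stand apart, when 7 histone genes passed. Microglia markers were lower in 3 of 6 genes of set 2 (86.2 and 64.4 against 155 and 128 FPKM) and oligodendrocyte precursor markers in 4 of 5 (85.7 and 76.7 against 132 and 152 FPKM). Meninges and fibroblast markers were lower in 3 of 5 (18.9 and 20.7 against 38.6 and 23.7 FPKM, with Col3a1 at 0 in set 2). Of 6 progenitor markers 2 were higher and 2 lower, and of 21 S phase and mitosis genes 1 was higher and 6 lower. In set 2, however, 8 genes of the full S phase and mitosis list of 22 were listed at 0. Genes that reached 1.02 FPKM in no library of set 2 or adult KO3 were listed so. Among the 8 were Cdk1, Ccnb1 and Mki67, with means of 0.281, 0.325 and 0.509 FPKM in set 1. A lower value of such genes cannot be told apart from this floor. Their part was not tested. Adult levels of a histone gene are therefore given by set, and KO2 and KO3 were not compared with each other.

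Across the 7 groups, the balance of related genes followed stage in some cases. H2afy2 made 55.6% to 65.1% of the macroH2A signal in the 6 E19.5 libraries and 12.2% to 25.5% in the 8 adult ones, and the lowest was adult KO3 replicate 2, where H2afy was high. Hist1h2bc was 0.0449 to 0.121 times Hist3h2ba at E19.5 and 0.68 to 1.39 times in adults. The H3.3 sum was 163 to 276 FPKM in adults, below the lowest E19.5 value of 541 FPKM in every adult library. The 16 clustered genes other than H4 summed to 230 and 194.7 FPKM in KO7 and at most to 150 FPKM in the 12 other libraries. Most of the KO7 sums, 209 and 173 FPKM, came from Hist3h2ba, Hist3h2a and Hist1h2bc, which had passed against wild type. In E19.5 wild type these genes gave 76.4 and 86.0 FPKM of sums of 99.9 and 106 FPKM.

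**Figure D5:**
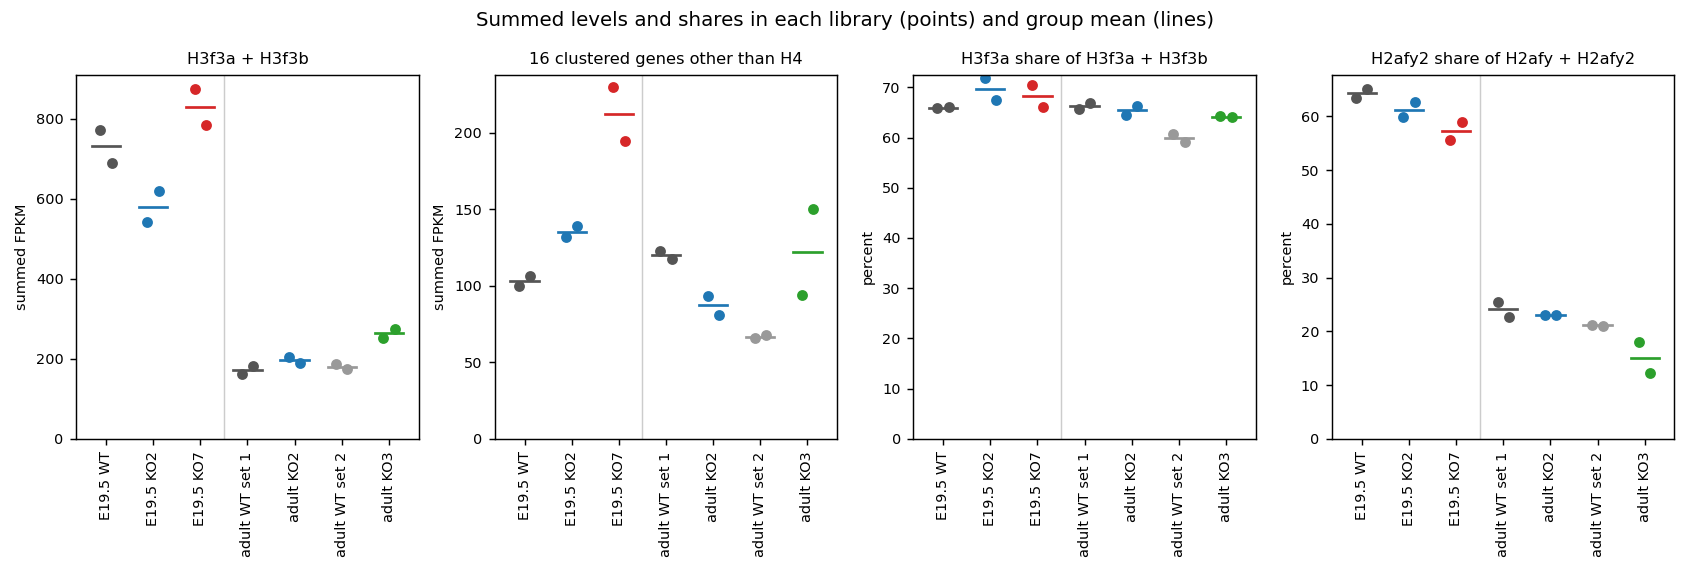
From left to right, for each library (points, 2 per group, with a line at the group mean): the summed FPKM of H3f3a and H3f3b, the summed FPKM of the 16 clustered members other than H4, the percentage of the H3.3 sum from H3f3a, and the percentage of the macroH2A sum from H2afy2. The first and last panels part E19.5 from adult libraries, the second is highest in KO7, and the third stays between 59.0% and 71.9%.

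The remaining 12 members, none of which passed in any comparison or reached a group mean of 10 FPKM, were Hist1h2bf, Hist1h2bh, Hist1h2bj, Hist2h2ac, Hist2h2be, Hist3h2bb-ps and 6 H4 genes. Hist2h2be, an H2B gene, was the most even of these, at 1.61 to 3.75 FPKM over the 14 libraries. Hist1h2bh ran from 0 in 4 libraries to 18.6 FPKM in adult wild type set 1 replicate 1, beside 0 in its other library. Hist1h4i ran from 1.55 to 6.37 FPKM, and Hist1h4c from 0 to 16.1 FPKM.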

How the data were processed

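Brain RNA, selected for poly(A) tails in 2 rounds per the labels' protocols, was sequenced in 14 libraries of 7 groups. The values are FPKM as deposited by the authors in 1 table; 2 unnamed entries were left out. Per the submitters' processing notes, TopHat2 2.1.1, Cufflinks 2.2.1, CASAVA and mm9 were used, in no stated role or order. The table's heading carries the word FPKM for 10 libraries, and the other 4 were taken to be FPKM. For annotation, strand and scaling between libraries, the step is not given in the sources used here. Low values did not fall on read steps (at most 9.14% of low genes in 1 ratio bin over 45 library pairs), so depth is unknown. Libraries of a group correlated at 0.964 to 0.983 across genes and shared at most 0.00701% identical values, so none was a copy of the other. Each was counted as a replicate, although this check cannot tell separate animals from technical repeats.

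The 14322 genes that reached 1 FPKM in 2 or more libraries were tested on the log2(FPKM + 1) scale, where changes of low genes appear smaller than they are. In R 4.3.3, limma 3.58.1 with a trend (2-sided tests, 7 residual degrees of freedom) fitted a mean for each group over the 14 libraries and made 9 comparisons. P-values were adjusted by Benjamini-Hochberg over all tested genes, with a threshold of 0.05. Where called genes are said not to overlap between groups, the same values made the call, so this is no separate support. The share of all genes without overlap was not counted. The procedure was tested on simulated data. Alternatives were pseudocounts of 0.1 and 5, no filter, quantile and median-of-ratios scaling, a replicate block, merged adult wild-type sets, 1 stage alone, 3 libraries left out and each library left out in turn. Values are printed for members that reach a group mean of 10 FPKM or pass in any comparison, and for up to 4 passing genes of each list with the smallest p. Symbols were matched to a RefSeq table (GRCm38.p6), 3 by symbol and 33 by synonym. The members and lists were chosen with earlier results of these data known. Some marker genes are not reported here by name.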

Additional observations from a re-analysis of the deposited data

How the results depend on the processing

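Depth is unknown and each group holds 2 libraries, which limits precision: small changes and H4 genes cannot be resolved. In wild-type and KO2 maturation every alternative gave a similar number of genes. Elsewhere counts moved by over 1.5 times, and the cause was not tested except where fewer libraries were fitted. For E19.5 KO2 against wild type (1 histone gene, 183 genes), a pseudocount of 0.1 gave 2 histone genes, a pseudocount of 5 gave 0 (6 at an unadjusted p under 0.05), no filter gave 391 genes, quantile scaling 292 and E19.5 alone 364. Leaving out the 3 libraries that stand apart gave 82 genes and 0 histone genes (5 unadjusted). For KO7 against wild type (5 and 637), the histone counts were 3 with a pseudocount of 0.1, 2 without a filter, 2 with median-of-ratios scaling, 8 without the 3 libraries (1315 genes) and 9 with E19.5 alone (1209 genes). For KO7 against KO2 (8 and 806), they were 5 with median-of-ratios scaling and 4 without the 3 libraries (419 genes), and E19.5 alone gave 1539 genes. For adult KO2 (22 genes), no filter gave 65, merged sets 7 and adults alone 10. For adult KO3 (13 and 3164), no filter gave 1751 genes, leaving out the 3 libraries 85 genes and 0 histone genes (11 unadjusted), and adults alone 0 and 0 (4403 and 17 unadjusted). For the KO2 interaction (9 genes), pseudocounts of 0.1 and 5 gave 21 and 16, no filter 122, quantile scaling 50, merged sets 3 and the 3 libraries left out 14. Between the adult wild-type sets (4 and 2990), quantile scaling and leaving out the 3 libraries each gave 7 histone genes, and adults alone 1704 genes.

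With each library left out in turn, genes and histone genes passing ranged from 6 to 529 and 0 to 1 for E19.5 KO2, 49 to 1552 and 1 to 8 for KO7, 191 to 1677 and 1 to 12 for KO7 against KO2, 3 to 36 and 0 to 1 for adult KO2, 8 to 6780 and 1 to 15 for adult KO3, 6229 to 9010 and 14 to 21 for wild-type maturation, 5143 to 8213 and 11 to 17 for KO2 maturation, 2 to 271 and 0 to 2 for the interaction, and 1313 to 4779 and 2 to 9 between the sets. A group left with 1 library is assumed to vary like the others. Among single named genes no alternative reversed a called direction.

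The labels do not say that equal replicate numbers pair samples, and deviations of same-numbered libraries correlated at -0.333 to 0.233 over group pairs. With the replicate block the histone counts were 1, 4, 8, 0, 12, 18, 14, 0 and 4, and the gene counts 139, 535, 752, 21, 2963, 7975, 6966, 6 and 2843, in the order E19.5 KO2, KO7, KO7 against KO2, adult KO2, adult KO3, both maturations, interaction and sets.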
